A study of Mus musculus with 10 samples.

Results

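The 10 genes described here encode the lysosomal machinery that reports amino acids to the kinase complex mTORC1: the Rag GTPases Rraga, Rragb, Rragc and Rragd, the Ragulator subunits Lamtor1 to Lamtor5, and folliculin (Flcn). They were taken by symbol from a table of 24475 genes, and all 10 were found. They were measured by RNA sequencing of islets, the endocrine cell clusters of the pancreas, isolated from C57BL/6 mice. In 5 libraries the mice had received REGN1193 (R1193 in the sample names), a blocking antibody against the glucagon receptor GCGR; in the other 5 they had received an isotype control antibody. Dose, duration, age, sex and batch are absent from the labels, and whether the libraries stem from different animals is not stated, so each p-value reflects no more than the scatter among these libraries. The study concerns the growth of the alpha cell population under glucagon receptor inhibition, and the question here is which parts of the amino acid signalling machinery differ in transcript level when the receptor is blocked.

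Rag GTPases work as heterodimers in which RagA or RagB pairs with RagC or RagD. When amino acids are plentiful, RagA or RagB carries GTP and RagC or RagD carries GDP, and the dimer recruits mTORC1 to the lysosome, where the small GTPase Rheb switches the kinase on. Ragulator is the scaffold that holds the Rags on the lysosomal membrane, and folliculin, together with a folliculin-interacting protein, makes RagC or RagD hydrolyse GTP. Block of the glucagon receptor raises amino acids in the blood, and mTORC1 is known to be needed for the alpha cell response to them.

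Only the transcript of Rragb, of the 10, differed between the groups past the threshold. RagA and RagB are encoded by separate genes whose messages resemble each other, so it matters whether reads can tell them apart. In GENCODE M21 the coding sequences of Rraga, a gene of 1 exon, and Rragb, a gene of 11 exons in its longest coding transcript, were identical at 777 of 939 aligned bases (82.7%). The longest stretch without a mismatch between both transcripts was 26 bases long and lay in the coding sequence of both. It is shown because a longer read could not fit both of these transcripts without a mismatch.

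Longest run shared by the Rraga and Rragb transcripts: ccttctgcagctactctgatcaacat

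No stretch of 50 bases was common to them, out of 2209 such stretches in Rragb. For Rragc and Rragd the coding identity was 78.2% over 1116 aligned bases, and the longest shared run was 20 bases. How the authors assigned reads that fit more than 1 gene is not given in the sources used here.

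The bases before the start sites of the 4 Rag genes are shown because Rragb differed between the groups and its paralog Rraga did not pass the test. RefSeq's promoter table for GRCm38.p6 matched 9 of the 10 members, all but Lamtor3, and the 250 bases before each start were searched on both strands. Capitals mark CACGTG, the E-box core that the lysosomal regulators of the MiT/TFE family recognise within longer elements. The windows are chr4:86575423-86575672, plus strand for Rraga, chrX:153139708-153139957, plus strand for Rragb, chr4:123917183-123917432, plus strand for Rragc and chr4:32982748-32982997, plus strand for Rragd. The start that the table uses for Rragb lies inside the annotated span of the gene.

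Rraga: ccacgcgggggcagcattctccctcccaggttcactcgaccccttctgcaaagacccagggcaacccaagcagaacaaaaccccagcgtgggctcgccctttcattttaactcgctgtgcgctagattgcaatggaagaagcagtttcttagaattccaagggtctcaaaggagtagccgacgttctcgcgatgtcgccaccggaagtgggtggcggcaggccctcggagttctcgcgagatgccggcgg

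Rragb: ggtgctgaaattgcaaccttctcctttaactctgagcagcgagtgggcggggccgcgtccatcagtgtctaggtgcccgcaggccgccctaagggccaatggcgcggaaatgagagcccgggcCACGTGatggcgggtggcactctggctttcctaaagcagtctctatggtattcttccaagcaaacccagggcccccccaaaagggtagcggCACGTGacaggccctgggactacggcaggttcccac

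Rragc: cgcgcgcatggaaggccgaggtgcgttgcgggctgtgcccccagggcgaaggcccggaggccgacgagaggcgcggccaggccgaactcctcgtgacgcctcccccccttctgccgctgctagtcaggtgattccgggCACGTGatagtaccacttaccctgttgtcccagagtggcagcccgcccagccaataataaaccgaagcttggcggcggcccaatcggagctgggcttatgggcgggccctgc

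Rragd: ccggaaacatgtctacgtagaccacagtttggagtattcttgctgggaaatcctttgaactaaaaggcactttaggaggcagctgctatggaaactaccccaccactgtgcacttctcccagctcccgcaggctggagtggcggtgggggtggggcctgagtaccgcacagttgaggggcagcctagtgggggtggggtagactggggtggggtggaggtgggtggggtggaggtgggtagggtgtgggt

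CACGTG occurred in 4 of the 9 searched members, Rragb, Rragc, Lamtor1 and Lamtor4, and in 6.02% of 32851 promoter windows of the same length. The core holds a CpG, and CpG numbers differ between windows: 14 in Rragb, 24 in Rragc, 16 in Lamtor1 and 5 in Lamtor4, where the median of all windows is 6. Rragb held it at 127 to 122 and at 36 to 31 bases before its start, and Rragc at 112 to 107 bases. The longer form TCACGTGA, which contains the E-box core, was found in 0.785% of all windows and in 0 of the 9. The ATF4-type element TGATGNAA was present in Lamtor4 and in 3.45% of all windows, and the cyclic AMP response element TGACGTCA in Flcn and in 1.55%. These matches are letters in a window and show no binding.

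The sequencing depth, estimated from the steps between low values, ran from 14.5 to 17.98 megareads in the antibody libraries and from 12.3 to 14.8 megareads in the isotype libraries. Each value of a member then rested on about 150 to 1525 reads, a count that assumes the longest RefSeq-linked transcript. RPKM, the unit of all levels below, is reads scaled by transcript length and library size, so levels of different genes can be set side by side. Of the 13450 genes that averaged 0.5 RPKM or more over the libraries, limma called 53 higher and 2 lower with the antibody at an adjusted p of 0.05. These counts depend on single libraries: 31 were called higher without isotype replicate 9, 32 without antibody replicate 2 or 3, and 20 were called lower without isotype replicate 6. Without antibody replicate 1, 2 or 3 or isotype replicate 7, 8 or 9, 0 or 1 were called lower. The tissue label was borne out by its markers: all 12 beta cell genes were tested, and they summed to at least 199314 RPKM in every library. Of 10 alpha cell genes, 8 were called higher, in a list chosen with earlier results of these data known. Antibody replicate 5 had the lowest value of all 10 libraries in 28.4% of tested genes and the highest in 16.5%, and isotype replicate 10 had the highest in 26.2% and the lowest in 5.84%.

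Rragb encodes RagB, which can take the place of RagA in the dimer, and lies on chromosome X from 153137644 to 153190192 (GRCm38.p6, Entrez 245670). With the blocking antibody it stood at 33.7, 31.0, 28.9, 36.7 and 35.4 RPKM in replicates 1 to 5. With the isotype antibody it stood at 20.4, 19.4, 17.3, 19.9 and 18.2 RPKM in replicates 6 to 10. All 5 antibody values exceeded all 5 isotype values, and the gap between the groups was wider than the spread within either. The means were 33.2 ± 3.17 and 19.0 ± 1.24 RPKM (SD, n = 5 each). The log2 fold change of RPKM + 0.5 was 0.78 (SE 0.10, limma adjusted p = 0.00346), a rise of 1.72-fold with a 95% interval from 1.48 to 1.99. The exact permutation p of 0.00794 is the smallest that 5 against 5 libraries can give. Rragb was thus 1 of 10 members called higher, where 0.394% of all tested genes were. It was also 1 of 10 members whose groups did not overlap upward, where 1.14% of tested genes did so. The members were chosen with earlier results of these data known, so these counts beside those shares are no test of the group. By limma's p Rragb ranked 17th among the 13450 genes. In whole islets, more cells of a type and more RNA per cell cannot be told apart. With the level of alpha cell genes as a covariate the log2 fold change was 1.02 with a wider SE of 0.30, and the call was lost (limma adjusted p = 0.464). That covariate does not overlap between the groups, and in that fit 0 of the 13450 genes were called higher. The loss of the call therefore does not separate Rragb from the alpha cell level.

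**Figure D1:**
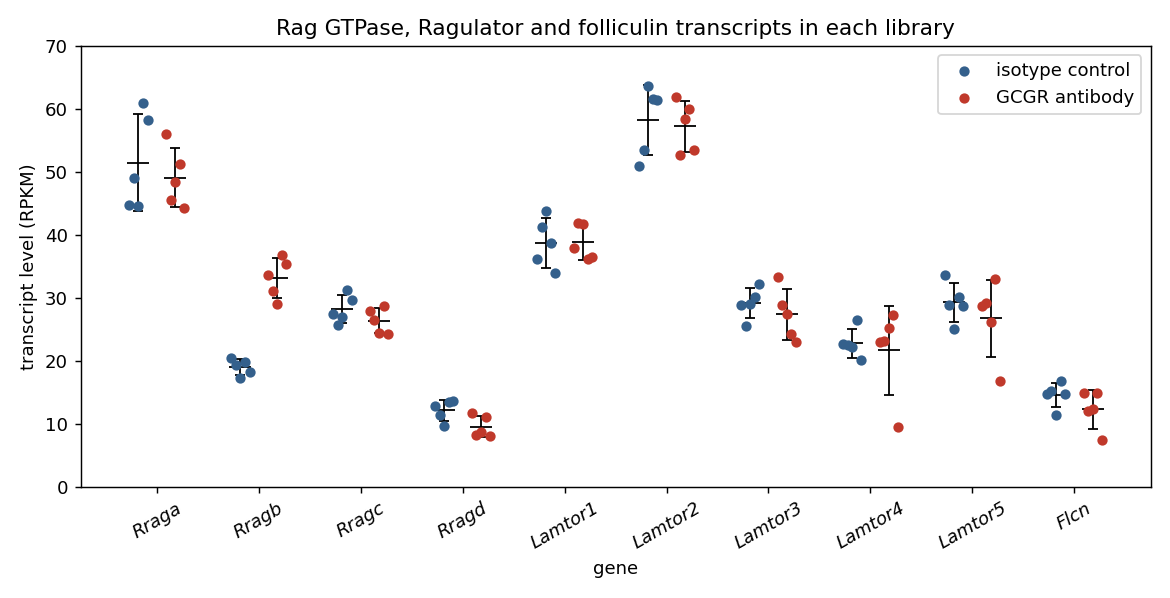
Transcript level in RPKM of each of the 10 genes (horizontal axis), 1 point per library, blue for isotype control and red for GCGR antibody, with black bars for mean and SD. The Rragb points of the antibody libraries (28.9 to 36.7 RPKM) sit above all isotype points (17.3 to 20.4 RPKM), while the groups overlap for the other 9 genes; the lone low antibody point of Lamtor4 is replicate 5.

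Rraga encodes RagA, which shares its partners with RagB, and lies on chromosome 4 from 86575673 to 86577285 (Entrez 68441). It stood at 56.1, 45.6, 48.4, 51.2 and 44.3 RPKM with the antibody. Under the isotype control the values were 44.7, 49.0, 44.5, 60.9 and 58.2 RPKM. The groups overlapped, and isotype replicates 9 and 10 lay above every antibody library. For Rraga the fold change came to -0.06 on the log2 scale (SE 0.12, limma adjusted p = 0.952), with a 95% interval of the fold from 0.80 to 1.15, which does not reach the rise of Rragb.

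The balance between RagA and RagB messages therefore differed. Rragb made up 37.5%, 40.5%, 37.4%, 41.8% and 44.4% of the summed RPKM of Rraga and Rragb in antibody replicates 1 to 5. In isotype replicates 6 to 10 its share was 31.3%, 28.3%, 28.0%, 24.6% and 23.9%. The lowest antibody share was above the highest isotype share. The means were 40.3% ± 2.96 and 27.2% ± 3.03 (SD, n = 5 each). The log2 ratio of Rragb to Rraga, which no scaling of whole libraries can alter apart from the pseudocount, was higher by 0.84 with the antibody (exact permutation p = 0.00794, adjusted over 3 such comparisons 0.0238). The shares and this ratio re-use the Rragb values, so they are no separate support for the call of Rragb. Rraga remained the more abundant message in all 10 libraries.

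Rragc encodes RagC, which pairs with RagA or RagB, and lies on chromosome 4 from 123917433 to 123936997 (Entrez 54170). It stood at 27.9, 26.5, 24.4, 28.7 and 24.2 RPKM with the antibody and at 27.4, 25.7, 27.0, 31.3 and 29.6 RPKM with the isotype control. The groups overlapped, and Rragc differed by -0.096 on the log2 scale (SE 0.10, limma adjusted p = 0.882; 95% interval of the fold 0.81 to 1.08). Rragb changed places with it: Rragb was below Rragc in all 5 isotype libraries and above it in all 5 antibody libraries.

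Rragd encodes RagD, the alternative to RagC and a known target of the MiT/TFE factors, and lies on chromosome 4 from 32982998 to 33022180 (Entrez 52187). It stood at 11.7, 8.25, 8.70, 11.003 and 8.13 RPKM with the antibody. With the isotype control it stood at 12.8, 11.4, 9.59, 13.5 and 13.6 RPKM. Antibody replicates 2, 3 and 5 were below every isotype library, while replicates 1 and 4 lay inside their range. With a log2 fold change of -0.34 (SE 0.14), Rragd missed the threshold when all tested genes were adjusted for (limma adjusted p = 0.649), while the exact permutation p of this gene alone was 0.0476.

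As a share of Rragc and Rragd together, Rragd took 26.5% ± 2.27 with the antibody and 30.1% ± 2.28 in isotype libraries (SD, n = 5 each), and the libraries overlapped. The log2 ratio of Rragd to Rragc differed by -0.24 (exact permutation p = 0.0476, adjusted over 3 comparisons 0.0476). Leaving out antibody replicate 2, 3 or 5 or isotype replicate 6, 7, 9 or 10 took the adjusted exact permutation p past 0.05 (up to 0.0952). The summed RPKM of Rraga and Rragb was 2.30 ± 0.107 times that of Rragc and Rragd with the antibody and 1.75 ± 0.0894 times in isotype libraries (SD, n = 5 each). That ratio ran from 2.21 to 2.46 and from 1.62 to 1.84, without overlap. It also contains the Rragb values and was not tested.

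**Figure D2:**
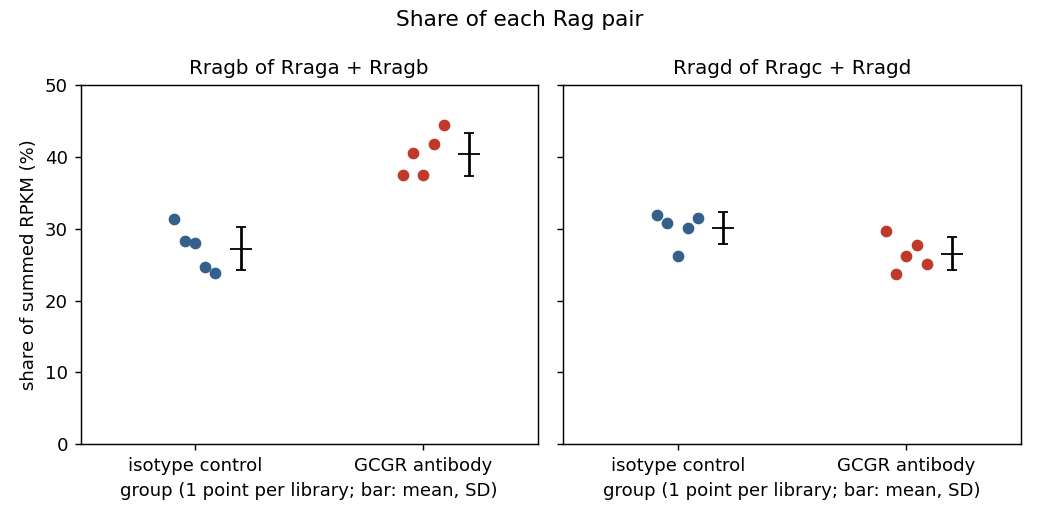
Share in percent of the summed RPKM that Rragb takes of Rraga and Rragb (left) and Rragd of Rragc and Rragd (right), 1 point per library by group, with mean and SD beside the points. The Rragb shares are separate (37.4% to 44.4% against 23.9% to 31.3%), and the Rragd shares overlap.

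Ragulator is built on Lamtor1, the lipid-anchored subunit that fastens the complex to the lysosome, here on chromosome 7 from 101905837 to 101911903 (Entrez 66508). Lamtor1 stood at 37.9, 41.9, 41.6, 36.2 and 36.5 RPKM with the antibody and at 36.1, 41.2, 43.8, 38.8 and 33.9 RPKM with the isotype control. The antibody libraries all lay within the isotype range. On the log2 scale the fold change came to 0.0059 (SE 0.10, limma adjusted p = 0.996; 95% interval of the fold 0.86 to 1.17).

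Lamtor2 and Lamtor3 form one of the small dimers that Lamtor1 wraps around. Lamtor2 (chromosome 3, 88549819 to 88552951, Entrez 83409) was the most abundant member on average in both groups. It stood at 61.9, 52.6, 58.4, 59.9 and 53.4 RPKM with the antibody and at 51.0, 53.5, 63.7, 61.6 and 61.5 RPKM with the isotype control. All antibody values lay within the isotype range. Lamtor3 (chromosome 3, 137918555 to 137928762, Entrez 56692) stood at 33.4, 28.8, 27.5, 24.2 and 23.0 RPKM with the antibody and at 28.8, 25.6, 29.1, 30.1 and 32.2 RPKM with the isotype control. Antibody replicates 4 and 5 were below every isotype library, and antibody replicate 1 was above them all. The log2 fold changes were -0.022 (SE 0.10) for Lamtor2 and -0.10 (SE 0.12) for Lamtor3, with limma adjusted p of 0.983 and 0.905.

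Lamtor4 and Lamtor5 form the other small dimer of Ragulator. Lamtor4 (chromosome 5, 138255482 to 138259395, Entrez 66096) stood at 23.0, 23.2, 25.3, 27.3 and 9.48 RPKM with the antibody and at 22.7, 22.4, 22.2, 26.5 and 20.1 RPKM with the isotype control. Antibody replicate 5 was far under the other 9 libraries. Lamtor5 (chromosome 3, 107278858 to 107284082, Entrez 68576) stood at 28.8, 29.2, 26.1, 33.0 and 16.8 RPKM with the antibody and at 33.6, 28.9, 25.0, 30.2 and 28.8 RPKM with the isotype control. Here too antibody replicate 5 was the lowest library. The log2 fold changes were -0.15 (SE 0.24, limma adjusted p = 0.935) for Lamtor4 and -0.15 (SE 0.17, limma adjusted p = 0.888) for Lamtor5. Without antibody replicate 5 they were 0.12 and 0.0013, both with limma adjusted p above 0.05 (0.834 and 0.999). The 95% interval of the fold of Lamtor4, 0.63 to 1.30, was the widest of the 10 members.

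Flcn encodes folliculin, the GTPase-activating protein for RagC and RagD, and lies on chromosome 11 from 59791408 to 59810039 (Entrez 216805). It stood at 14.8, 11.9, 12.4, 14.9 and 7.37 RPKM with the antibody and at 14.7, 15.2, 11.4, 16.8 and 14.7 RPKM with the isotype control. Antibody replicate 5 was again lowest, and the other antibody libraries lay within the isotype range. For Flcn the fold change came to -0.27 on the log2 scale (SE 0.18, limma adjusted p = 0.839; 95% interval of the fold 0.63 to 1.09), and -0.10 without antibody replicate 5. That replicate held the lowest value of all 10 libraries in 7 members: Rraga, Rragc, Rragd, Lamtor3, Lamtor4, Lamtor5 and Flcn. It also held the lowest value in 28.4% of all tested genes, the largest share of any library. In Rragb that replicate was the second highest of the antibody libraries and of all 10. The part of this library in the differences was not tested beyond leaving it out.

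**Figure D3:**
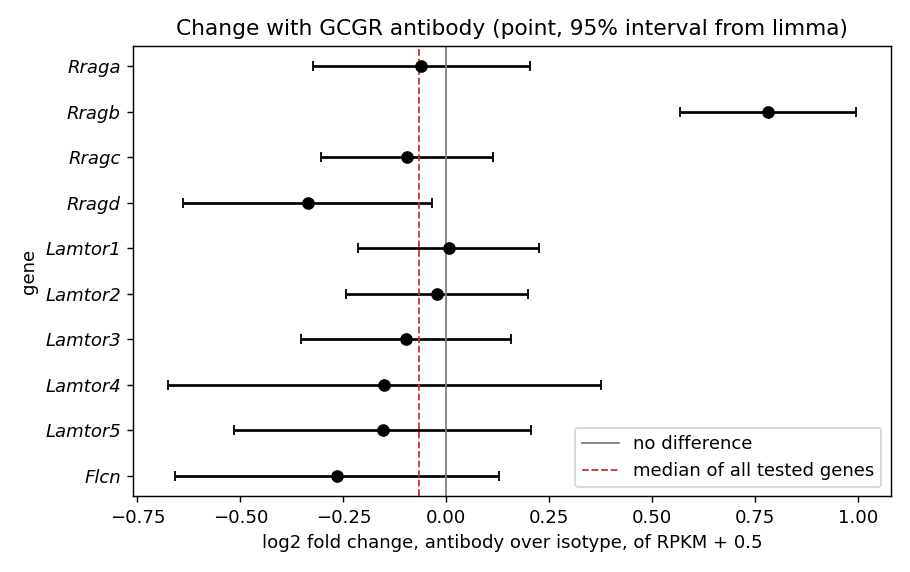
Log2 fold change, antibody over isotype, of RPKM + 0.5 for each of the 10 genes (vertical axis), with 95% intervals from limma, a grey line at no difference and a dashed line at the median of all tested genes. Rragb, at 0.78, stands clear of 0; the intervals of the other genes include 0 except that of Rragd, which ends at -0.04 and did not pass the adjustment.

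Among the 10 members, 1 was called higher and 0 lower by limma, against 0.394% and 0.0149% of all tested genes. Because the members were chosen with earlier results of these data known, these counts are no test of the group. At an unadjusted limma p under 0.05 there were 1 higher (Rragb) and 1 lower (Rragd), beside 382 higher and 562 lower of all 13450 tested genes. The median log2 fold change of the members was -0.10, beside -0.07 over all tested genes, and 8 of the 10 folds were below 0, as were 66.5% of all; with median centring, quantile normalization or trimmed mean scaling those of Rraga and Lamtor2 turned positive. The 5 Ragulator subunits had a median of -0.10, from -0.15 to 0.0059.

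The order of the members' levels was similar in both groups except for Rragb. Lamtor2 and Rraga, whose ranges overlapped, led on average in both groups, followed by Lamtor1, and Flcn and Rragd were lowest. In the isotype libraries Rragb was the eighth most abundant of the 10, below Lamtor3, Lamtor4 and Lamtor5 in all 5 libraries. In the antibody libraries it was the fourth, above Lamtor3, Lamtor4 and Lamtor5 in all 5. Lamtor3, Lamtor5 and Rragc had overlapping ranges in each group, so their order is not resolved. The ranges of Rraga and Lamtor1 did not overlap in either group.

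Alpha cell transcripts moved with the same contrast as Rragb. The 10 alpha cell genes all had positive folds, 8 of them called, and their summed level ran from 55164 to 84271 RPKM with the antibody and from 10187 to 18177 RPKM with the isotype control. Gcg, the glucagon gene, made up most of that sum, with a mean of 63254 RPKM in the antibody libraries and a log2 fold change of 2.39 (SE 0.27). On the log2 scale the mean of the 10 alpha cell genes was higher by 1.39 with the antibody, so Rragb was lower relative to it, by a difference of -0.61 (exact permutation p = 0.0317, adjusted over 3 comparisons 0.0476). That call was lost with an adjusted exact permutation p of up to 0.0952 without antibody replicate 2, 3 or 5 or isotype replicate 6, 7, 9 or 10. It was also lost when Gcg and Ttr were left out of the list (difference -0.31, exact permutation p = 0.159). Like the other lists, the alpha cell list was chosen with earlier results of these data known. Its counts and this comparison are therefore given as descriptions.

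Within the groups, Rragb and the alpha cell mean were set side by side library by library. Antibody replicates 2 and 3 had the highest alpha cell means (5.86 and 5.73) and the lowest Rragb (31.0 and 28.9 RPKM). Isotype replicates 7 and 8 had the highest alpha cell means of their group (both 4.62) and Rragb at 19.4 and 17.3 RPKM, in the middle and at the bottom of theirs. The libraries with the lowest alpha cell means were antibody replicate 1 (5.49) and isotype replicate 10 (3.91), whose Rragb was the third highest (33.7 RPKM) and the second lowest (18.2 RPKM) of their groups. With the alpha cell mean as a covariate, which does not overlap between the groups, the log2 fold change of Rragb was 1.02 (SE 0.30) and its limma adjusted p 0.464. In that fit 0 genes were called higher and 1 lower of the 13450.

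**Figure D4:**
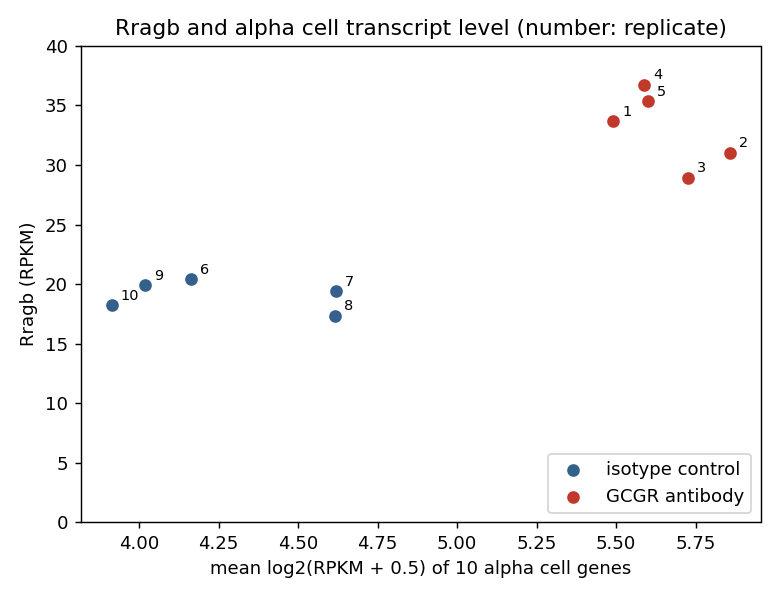
Rragb in RPKM (vertical axis) against the mean log2(RPKM + 0.5) of 10 alpha cell genes (horizontal axis), 1 point per library with its replicate number, blue for isotype control and red for GCGR antibody. The groups are separate on both axes, and within the antibody group replicates 2 and 3 have the most alpha cell transcript and the least Rragb.

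Markers of other cells were set beside Rragb as well. Over all 13450 tested genes, 66.5% of folds were below 0. At an unadjusted limma p under 0.05, 382 of them were higher and 562 lower. Of the 12 beta cell genes limma called 0, all 12 had negative folds and 3 were lower at an unadjusted limma p under 0.05; their summed level ran from 199314 to 356581 RPKM with the antibody and from 298786 to 472840 RPKM with the isotype control. The 4 tested delta cell genes had positive folds, with 4 at an unadjusted limma p under 0.05 and 0 called (summed level 3701 to 9712 against 2048 to 4970 RPKM). Of the 2 pancreatic polypeptide cell genes, 1 was at an unadjusted p under 0.05 and 0 were called (4111 to 12901 against 3173 to 6339 RPKM). All 12 acinar genes had negative folds, with 2 at an unadjusted limma p under 0.05 and 0 called, at 3865 to 11891 against 3043 to 17295 RPKM. The ductal, leukocyte, endothelial, mesenchymal, Schwann and red blood cell lists also had 0 called genes, with 2 ductal genes and 1 mesenchymal gene lower at an unadjusted limma p under 0.05. The summed levels of the 2 groups overlapped in every list except the alpha cell list. The part of these cells in the level of Rragb was not tested, apart from the acinar and ductal levels as covariates, under which Rragb was still called.

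The remaining genes of the pathway gave no call in either direction. Of 84 listed genes, 79 were tested, and limma called 0 of them higher and 0 lower, where 0.409% of all tested genes were called. At an unadjusted limma p under 0.05 there was 1, higher: Rps6, the ribosomal protein whose phosphorylation reports mTORC1 activity, at 725 ± 57.3 against 608 ± 41.0 RPKM (SD over 5 libraries a group), a difference of 0.25 on the log2 scale with a limma adjusted p of 0.704. Over all 13450 tested genes 382 were higher and 562 lower at that unadjusted threshold. The median log2 fold change of the 79 was -0.06, beside -0.07 over all tested genes, and they ran from -0.33 to 0.25, a span that stops short of the 0.78 of Rragb. Kics2 of the KICSTOR complex was not matched, and Castor1, Rnf152, Tfec and Prr5l were below the minimum level.

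The genes nearest to the Rags in function were in the same narrow range. Each value given with an SE in the descriptions of pathway genes is a log2 fold change. Over all tested genes 0.409% were called and 66.5% of folds were below 0. At those shares, 0 calls or mostly negative folds in a short list say little about that list. In the mTORC1 complex (0 of 5 called, 5 folds below 0), Mtor, the kinase itself, was at 7.56 ± 1.41 against 8.98 ± 1.24 RPKM and Mlst8, a kinase-binding subunit, at 4.46 ± 0.562 against 5.19 ± 0.489 RPKM (SD, n = 5 each). GATOR1 switches RagA and RagB off by making them hydrolyse GTP (0 of 3 called). Its subunits Depdc5 and Nprl3 had log2 fold changes of -0.12 (SE 0.093) and -0.10 (SE 0.105). GATOR2 opposes GATOR1 (0 of 5 called), with Wdr59 at -0.16 (SE 0.14) and Sec13 at -0.15 (SE 0.17). KICSTOR holds GATOR1 at the lysosome (0 of 3 called), with Kptn at -0.30 (SE 0.15) and Itfg2 at -0.06 (SE 0.11).

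Of the amino acid sensors and their kin 0 of 7 were called. Lars, the leucyl-tRNA synthetase, was at 37.1 ± 6.81 against 43.0 ± 10.02 RPKM and Sesn1, a sestrin, at 13.5 ± 1.16 against 13.1 ± 2.78 RPKM (SD, n = 5 each). Among folliculin's partners and other Rag regulators (0 of 5 called), Fnip2, a folliculin-interacting protein, showed -0.11 (SE 0.11) on the log2 scale and Slc36a1, a lysosomal amino acid transporter, -0.085 (SE 0.10). In the Rheb and TSC group (0 of 5 called), Tsc1 and Tbc1d7, subunits of the complex that turns Rheb off, were at -0.11 (SE 0.115) and -0.096 (SE 0.14).

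No gene of the V-ATPase list or of the list of lysosomal target genes was called. The V-ATPase, the proton pump that touches Ragulator, had 0 of 16 genes called, with its accessory subunit Atp6ap1 at 0.21 (SE 0.11) and Atp6v1c1 at -0.13 (SE 0.10) on the log2 scale. Of 3 tested MiT/TFE factors, the transcription factors that Rags and folliculin help keep out of the nucleus, 0 were called, with Mitf at -0.25 (SE 0.15) and Tfe3 at 0.15 (SE 0.13). Their lysosomal target genes had 0 of 18 called, with 9 folds above and 9 below 0; Uvrag, an autophagy factor, was at -0.17 (SE 0.11). The list of mTORC1 substrates together with Rps6 had 0 of 6 called. In it Eif4ebp1, a repressor of translation, was at 23.97 ± 4.70 against 31.8 ± 12.9 RPKM (SD, n = 5 each). The mTORC2 subunits, which form the complex that does not need the Rags, had 0 of 3 called, with Mapkap1 at -0.23 (SE 0.11) and Prr5 at 0.17 (SE 0.19).

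**Figure D5:**
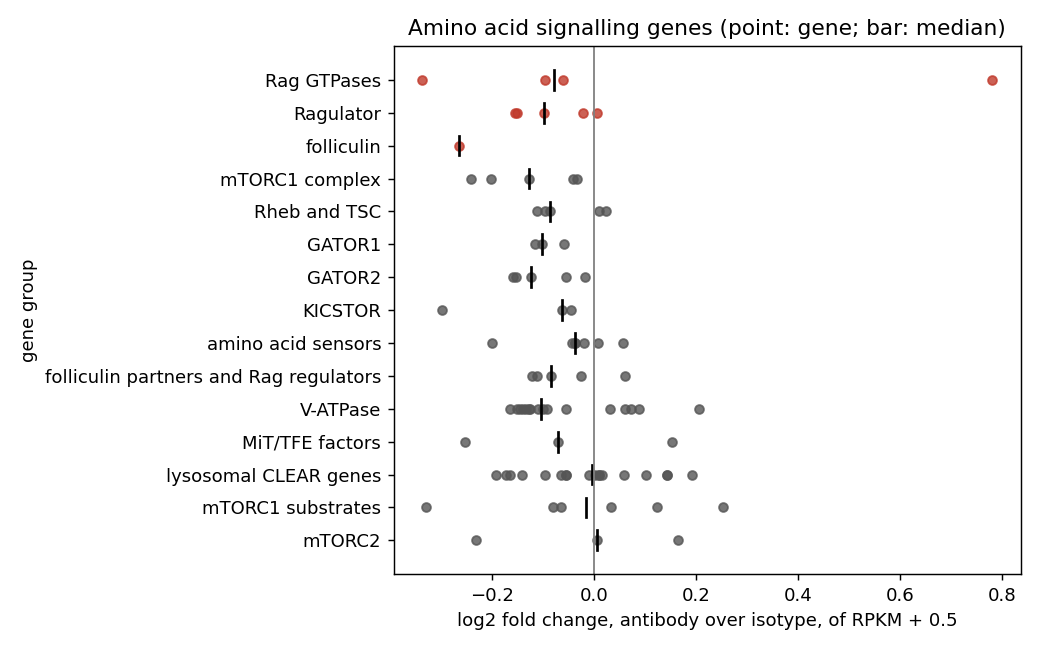
Log2 fold change, antibody over isotype, of RPKM + 0.5 for each tested gene (points) by gene group (vertical axis), with black bars at group medians and the 10 members in red. The 79 other pathway genes lie between -0.33 and 0.25, and the single red point at 0.78 is Rragb.

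Neighbouring genes on chromosome X did not share the rise of Rragb past the threshold. The nearest 3 tested genes on one side, Mageh1, Usp51 and Shroom2, had log2 fold changes of -0.04 (SE 0.20), -0.03 (SE 0.13) and -0.13 (SE 0.11). Those on the other side, Klf8, Ubqln2 and Kctd12b, had 0.10 (SE 0.16), 0.07 (SE 0.16) and 0.34 (SE 0.26). The closest of the 6, Klf8, begins 35.1 kb from Rragb. In all 6 the groups overlapped, and limma adjusted p was at least 0.858.

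The genes whose log2 levels followed Rragb most closely over the 10 libraries were Dbpht2 (Pearson r = 0.98), Slc25a53 (0.96), Ndst4 (0.95), Rgs20 (0.95), a regulator of G protein signalling, and Scin (0.94), an actin-severing protein. The group difference enters these values, so genes picked this way tend to be split by group as Rragb is. In each of these 5 the antibody libraries lay above the isotype libraries without overlap, which is therefore no separate result. Dbpht2 was at 27.6 ± 2.74 against 14.4 ± 1.61 RPKM, Slc25a53, a mitochondrial carrier of the Slc25 family, at 10.5 ± 0.2998 against 7.23 ± 0.434 RPKM, and Ndst4, a heparan sulfate sulfotransferase, at 6.30 ± 0.534 against 1.95 ± 0.407 RPKM (SD, n = 5 each). These 3 were called by limma, and Rgs20 and Scin were not (adjusted p = 0.454 and 0.259). Both were low, with means of 0.667 against 0.364 RPKM for Rgs20 and 0.927 against 0.510 RPKM for Scin. The isotype mean of Rgs20 lay below the 0.5 RPKM that genes had to average over all libraries. When each library's deviation from its group mean was used instead, the 5 closest were Pdpr (0.98), Fras1 (0.97), Erlin2 (0.96), Dcaf8 (0.95) and BC037032 (0.94). No gene stood in both sets, and the second set had log2 fold changes from -0.30 to -0.0014. Each set is the top of all tested genes over 10 libraries that differ in depth and tissue makeup, and is given as a description. By the second measure the other 9 members ran from -0.61 (Lamtor1) to 0.505 (Rragd).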

How the data were processed

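The authors deposited 1 table of RPKM values for 10 islet polyA RNA libraries, made with a Nextera XT kit per the labels' protocols. The submitters' processing notes name GRCm38, mm10, CASAVA 1.8.2 and FastQC with no role; the aligner is not given in the sources used here, and the same holds for read counting and gene models. Columns were matched to samples by title. Positions came from RefSeq (GRCm38.p6), which held 24375 of the 24475 Entrez identifiers. Values were used as log2(RPKM + 0.5), so folds of low genes are understated. The 13450 genes averaging 0.5 RPKM or more, all 10 members among them, went into limma 3.58.1 (R 4.3.3) with a variance trend and Benjamini-Hochberg adjustment at 0.05. That fit was also run on simulated data with known changes. Those values were drawn independently for each gene and library, so they cannot show how the fit handles shifts of whole libraries. Single values were compared with two-sided exact permutation tests over 252 assignments. Depth came from 12653 genes with 1 RefSeq-linked GENCODE M21 length: between 67.4% and 72.5% of low values lay within 0.1 of whole reads, where 20% would by chance, and the step was fitted to the same values. Python 3.11.15 with pandas 2.3.3, Biopython 1.88 and matplotlib 3.10.9 did the rest.

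The members and lists were chosen with earlier results of these data known. Named were all members and the 2 genes of smallest p in each pathway list. Also named were the 5 genes most like each called member by each measure, and its 3 nearest tested genes per side. Gcg, Ttr and the pathway genes that were unmatched or below the minimum level were named beyond this rule. A gene that the rule names is not reported here. Alternatives were other pseudocounts, filters, scalings, variance settings, array weights, marker covariates and leaving out each library.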

Additional observations from a re-analysis of the deposited data

Results flagged for a closer look

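Lamtor4 in antibody replicate 5 stood at 9.48 RPKM, far from the other 4 antibody libraries (23.0 to 27.3 RPKM): the gap to the nearest of them was 0.756 of the whole range, above Dixon's 95% limit of 0.710 for 5 samples. Chance flags about 1 in 20 groups, and 26 groups were checked. Without that library the log2 fold change of Lamtor4 was 0.12 in place of -0.15, and the limma adjusted p was 0.834.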

How the results depend on the processing

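Rragb kept its direction in all 23 alternatives (log2 fold change 0.70 to 1.02) and its call in 22. With 1 library left out its log2 fold change ran from 0.74 to 0.83 and its limma adjusted p reached 0.0156 at most. The exception was the alpha cell covariate, under which it was 1.02 (limma adjusted p = 0.464), so that 0 members were called higher. That covariate moved the median of all tested genes from -0.07 to 0.12 and gave 0.60 for Rraga, 0.29 for Rragc, 0.56 for Rragd, -0.57 for Lamtor1, 0.15 for Lamtor2, 0.25 for Lamtor3, 0.073 for Lamtor5 and 0.22 for Flcn, all uncalled and all of changed sign; the cause was not tested. The near-zero folds of Rraga and Lamtor2 also changed sign, uncalled, with median centring (0.017 and 0.055), quantile normalization (0.0092 and 0.036) and trimmed mean scaling (0.011 and 0.0497). That of Lamtor1 did so with the acinar covariate (-0.015). Lamtor4, at -0.15 in the main analysis, changed sign to 0.043 with array weights, also uncalled. With 1 library left out, Rraga ran from -0.11 to 0.0029, Lamtor1 from -0.0404 to 0.051, Lamtor2 from -0.068 to 0.011, Lamtor4 from -0.25 to 0.12 and Lamtor5 from -0.24 to 0.0013. The Rragb to Rraga difference held its call in all 12 alternatives (0.78 to 0.91). That of Rragd to Rragc ran from -0.31 to -0.19 with 1 library left out, and that of Rragb to the alpha cell mean from -0.72 to -0.53, each losing its call in 7 of 10 omissions; without Gcg and Ttr the latter was -0.31. Leaving a library out raises the smallest reachable exact permutation p to 0.0159. No other member and none of the 79 pathway genes was called in any alternative. Over all genes, the main analysis called 53 higher and 2 lower; alternatives gave 0 (alpha cell covariate) to 121 higher (array weights) and 0 to 61 lower (array weights), and leaving out 1 library 31 to 50 higher and 0 to 20 lower. Without isotype replicate 10 the median of all tested genes was -0.0365. No paired analysis was possible because the groups share no replicate number.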
